A study of Triticum aestivum with 12 samples.

Results

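The probe sets described here are those whose signal was alike in the grains of the wheat genotypes IITR26 and WL711 at 14 days after anthesis (DAA), was higher in IITR26 at 28 DAA, and was higher at 28 than at 14 DAA in IITR26. They were chosen from the 4 group means of the deposited log2 values. The difference IITR26 minus WL711 had to lie between -1 and 1 at 14 DAA and to be at least 2 at 28 DAA, every IITR26 array had to lie above every WL711 array at 28 DAA, and the mean of IITR26 had to be higher by at least 2 at 28 than at 14 DAA. On the log2 scale a difference of 1 is a doubling. Of 61179 probe sets other than the controls, 420 had a difference of at least 2 at 28 DAA, 241 of these lay between -1 and 1 at 14 DAA, 224 of these passed the bound on IITR26 and 220 the separation of the arrays. Another 5 probe sets of 3 clusters were left out by the rule, which left 215 members. Because the rule read all 4 means, the members' values in every comparison below are a description, with no test.

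In the developing wheat grain the endosperm is filled with starch and storage protein first, and the embryo and the aleurone layer then make protective proteins as the grain begins to lose water. Late embryogenesis abundant (LEA) proteins, among them the Em proteins first described in wheat embryos, are small hydrophilic proteins of this late phase and are known for their induction by abscisic acid. NAC proteins are plant transcription factors, and MtN3 and MtN21 type nodulins are membrane proteins, known elsewhere as sugar and amino acid carriers.

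The study compared 2 genotypes at 2 stages on the wheat genome array of Affymetrix, with 3 arrays for each combination. IITR26 is the genotype with the higher grain mineral concentration and WL711 the one with the lower, both grown in the field, with no treatment and no introduced gene. The RNA of each sample came from 3 whole grains taken from the middle of the ear, so embryo, endosperm and grain coats were measured together, and fewer cells of a type cannot be told apart from less RNA per cell. Each genotype is 1 line, so a difference between them belongs to these lines, and the samples of a group were called biological replicates by the study, without saying which plant gave which sample.

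The deposited values are centred, with a median of 0 over the 12 arrays in each probe set. Only differences between arrays can be read from them, so the tissue could not be checked against the level of its markers, and members cannot be ranked by brightness. The correlation of deposited values across all probe sets was 0.831 to 0.879 between the IITR26 28 DAA arrays and 0.883 to 0.903 between the WL711 14 DAA arrays. It was 0.59 to 0.729 between the IITR26 14 DAA arrays, and WL711 28 DAA replicate 1 stood apart from its group, with 0.286 to 0.412 against replicates 2 and 3 and 0.365 to 0.395 against the IITR26 28 DAA arrays. Without that array the rule took 231 probe sets, and 13 of the 215 left the set. The 111 control probe sets differed between genotypes by -0.58 to 1.09 at 28 DAA, and 0 of them by 2 or more in size.

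At 28 DAA the members were higher in IITR26 by 2.003 to 8.72 on the log2 scale, with a median of 2.67 against 0.00 over all probe sets. The difference was 2 to under 3 in 136 members, 3 to under 4 in 49, 4 to under 6 in 23 and 6 or more in 7. In limma's fit with Benjamini-Hochberg adjustment over all probe sets, 195 members passed an adjusted p of 0.01 and a log2 difference of 2, where 0.566% of all probe sets did so in this direction. The count was 78 after a repeated quantile normalization, and the methods' unpaired test called 160 unadjusted and 0 when adjusted here over all probe sets. The study describes its adjustment with an analysis of variance, after a filter on the coefficient of variation. The 0 is therefore not the result of its own procedure. At 14 DAA the members' median was 0.11, and 0 members passed in either direction, where 0.595% of all probe sets were called higher and 0.772% lower in IITR26. An unadjusted p under 0.05 was found at 14 DAA for 19 members higher and 8 lower with limma, beside 11.6% and 12% of all probe sets, and for 23 and 12 members with the methods' unpaired test. The larger difference at 28 than at 14 DAA passed for 127 members, beside 0.729% of all probe sets. These counts follow from the choice of the members, and nothing is read from them.

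**Figure D1:**
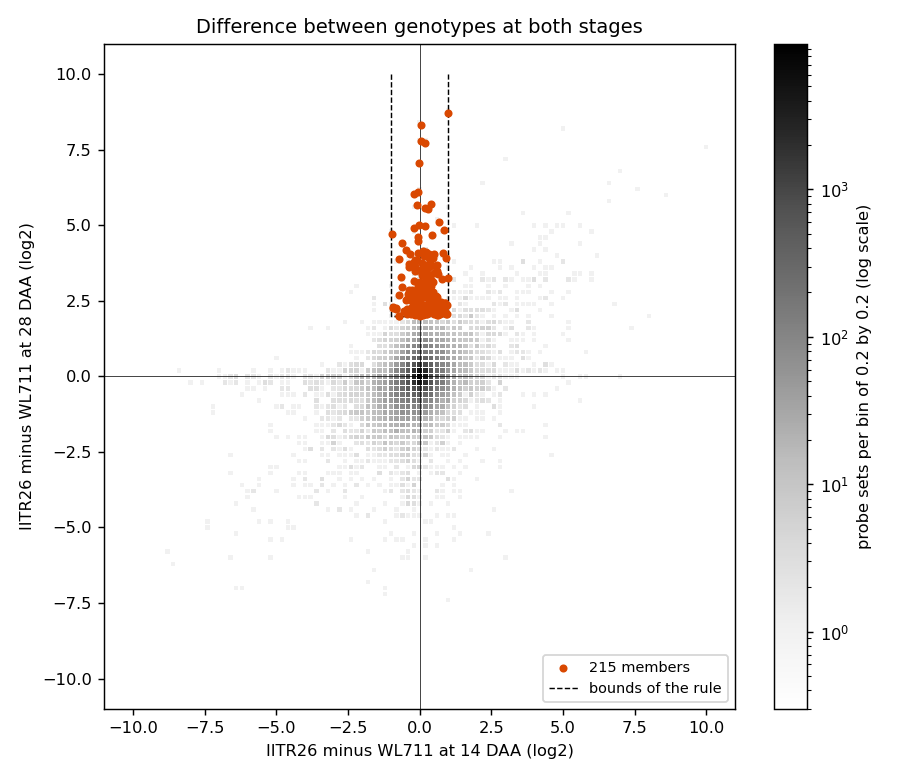
IITR26 minus WL711 at 14 DAA (x) and at 28 DAA (y), in log2, for all probe sets in bins (grey, log scale of probe sets per bin) and for the 215 members (orange points), with the bounds of the rule dashed. The members lie between -0.98 and 0.98 on the x axis and between 2.003 and 8.72 on the y axis.

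The change with stage varied among the members in both genotypes, and the rule bounded it from below in IITR26 alone. From 14 to 28 DAA the IITR26 mean was higher by 2.02 to 10.48, with a median of 3.66, and 205 members passed the test beside 1.33% of all probe sets (1.59% passed downward). Every IITR26 array of 28 DAA lay above every one of 14 DAA in all 215, beside 18% of all probe sets. In WL711 the change ran from -0.87 to 9.10, with a median of 0.81 over the members and 0.03 over all probe sets. It passed upward for 43 members, beside 0.958% of all probe sets, and downward for 0, beside 1.34%. The unpaired test after adjustment called 94 members upward in IITR26 and 8 in WL711. An unadjusted p under 0.05 for a lower value at 28 DAA in WL711 was found for 3 members with limma, beside 16.4% of all probe sets, and for 2 members with the unpaired test. Every WL711 array of 28 DAA lay above every one of 14 DAA in 139 members, or 64.7%, where 18.7% of all probe sets did so, and below in 6, or 2.79%, where 18.2% did.

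By the size of the WL711 change the set falls into 3 ranges. In 45 members the WL711 mean was higher by at least 2 at 28 DAA, and the median change was 3.14 in WL711 and 6.10 in IITR26. In 44 members the WL711 change was 1 to under 2, with a median of 1.42 in WL711 and 4.14 in IITR26. In the other 126, or 58.6%, it lay between -1 and 1, with a median of 0.44 in WL711 and 3.02 in IITR26. The median difference between genotypes at 28 DAA was 2.67, 2.70 and 2.67 in these ranges. The cuts of 1 and 2 were set by hand, and the values run on across them without a gap.

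**Figure D2:**
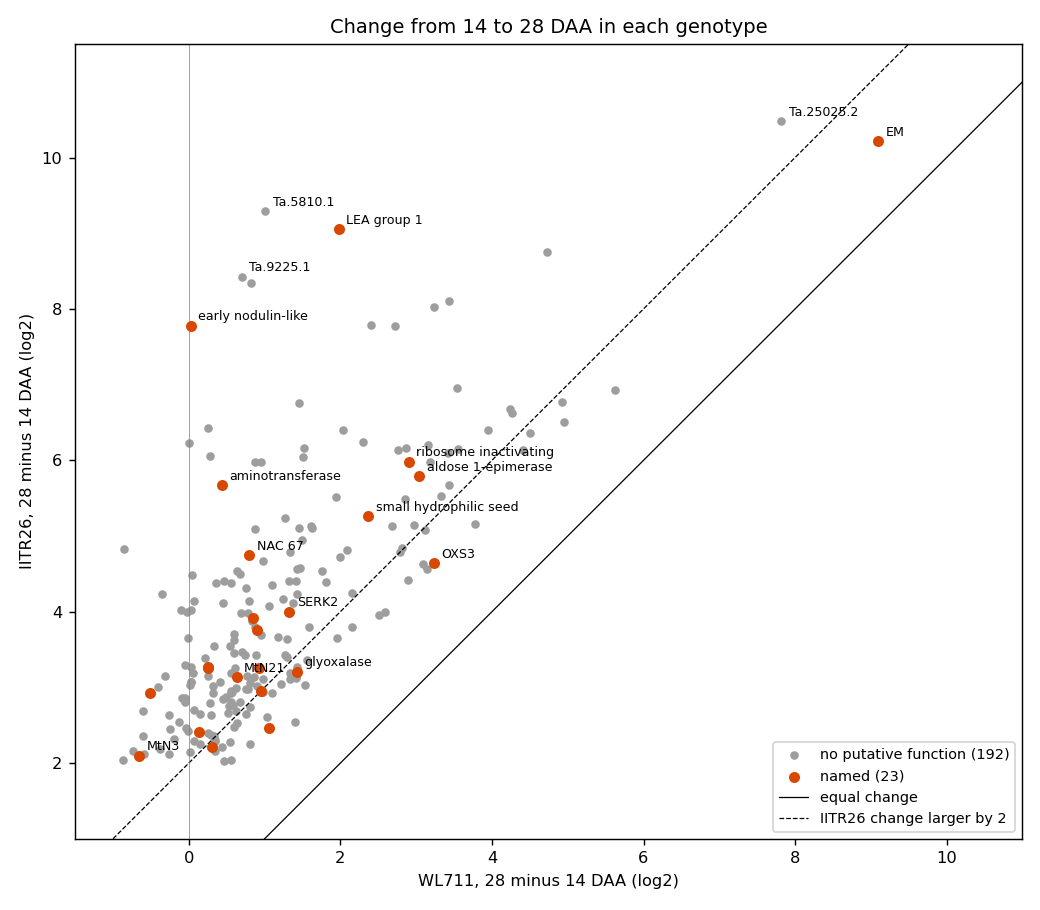
Change from 14 to 28 DAA in WL711 (x) and in IITR26 (y), in log2, for the 215 members, with the 23 named members in orange, the other 192 in grey, a solid line of equal change and a dashed line where the IITR26 change is larger by 2. EM and Ta.25025.2 lie at the upper right with changes of 7.82 or more in WL711, while the early nodulin-like member lies at 0.03 in WL711 and 7.78 in IITR26.

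Few members can be named. Of the 215, 36 were in the study's own table of 580 probe sets with putative functions, 22 of them with a function and 14 as hypothetical proteins. Another 6 members had a gene in the platform's annotation, 5 of these as a bare locus number and 1 with a name, EM. The functional bins of the study put 14 members under not assigned, 7 under development, 4 under biotic stress, 4 under enzyme, 2 under abiotic stress and 2 under DNA synthesis, and 1 each under cell organisation, protein and regulation. The study picked the 580 probe sets for their differences on these same arrays, so the functions describe the members and are no independent evidence.

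The named seed protection proteins were EM, a LEA group 1 protein and a small hydrophilic plant seed protein. EM (Ta.2798.1.S1_x_at), the gene of an Em protein, stood at -5.05, -5.08 and -2.82 in the 3 IITR26 arrays of 14 DAA and at 5.71, 6.14 and 5.84 in those of 28 DAA. In WL711 it stood at -5.39, -5.34 and -5.09 at 14 DAA and at 4.44, 4.22 and 2.82 at 28 DAA. The signal was thus far higher at the later stage in both genotypes, with no overlap of the stages, and IITR26 replicate 3 of 14 DAA and WL711 replicate 3 of 28 DAA stood nearer to the other stage than their replicates did. The change from 14 to 28 DAA was 10.21 in IITR26 and 9.10 in WL711, and the difference between genotypes at 28 DAA was 2.08, close to the bound. Without WL711 28 DAA replicate 3 it was 1.57, and EM left the set when any of 5 arrays was left out, more than any other member. Its difference of 0.96 at 14 DAA was close to the bound as well. A second probe set of EM, Ta.2798.1.S1_s_at, was no member. It was higher in IITR26 by 1.39 at 14 DAA and by 1.47 at 28 DAA. Its change with stage was nearly the same in both genotypes, 10.65 in IITR26 and 10.58 in WL711.

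The LEA group 1 protein (Ta.13396.1.S1_at) showed the other form. It stood at -0.75, -1.02 and -0.93 in IITR26 at 14 DAA and at -0.78, -1.02 and -0.83 in WL711, so that the genotypes overlapped at that stage. At 28 DAA the IITR26 arrays stood at 7.30, 8.11 and 9.06 and the WL711 arrays at 1.39, 1.18 and 0.75. Both genotypes were higher at 28 DAA with no overlap of the stages, by 9.06 in IITR26 and by 1.98 in WL711. At 28 DAA the IITR26 mean was 133-fold that of WL711. Such folds are ratios of the deposited signals, and where the WL711 signal lay at background, which these values do not tell, they are lower bounds. All 4 probe sets of its cluster were members, with differences at 28 DAA of 7.05, 4.17, 3.67 and 2.98.

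The small hydrophilic plant seed protein (Ta.25230.1.S1_at) had the tightest replicates of the 3 at 28 DAA. Its IITR26 arrays stood at 3.996, 4.22 and 4.05 at 28 DAA and its WL711 arrays at 0.89, 0.87 and 0.76. At 14 DAA its mean in IITR26 was -1.17 ± 0.42 (SD, n = 3), and that in WL711 was -1.53 ± 0.08 (SD, n = 3), with overlapping arrays. The change with stage was 5.26 in IITR26 and 2.37 in WL711.

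Over the list of LEA proteins and dehydrins, which held 9 probe sets of the array, 2 of them members, IITR26 was called higher in 4 and lower in 1 at 28 DAA, beside 0.566% and 0.804% of all probe sets. The 4 include the 2 members, chosen for this difference, and dehydrin xero 1, which met every bound and was left out with its cluster. The counts at 14 DAA were 3 and 1, and 6 probe sets passed upward with stage in each genotype. The list's median difference between genotypes was 0.35 at 14 DAA and 1.10 at 28 DAA, against 0.01 and 0.00 over all probe sets. EM, named by its symbol alone, was not caught by the key words of the list. Of those that are no members, Embryonic protein DC-8 (Ta.6146.1.S1_at) was higher in IITR26 at both stages, by 3.21 ± 0.41 (SE) at 14 DAA and 3.10 ± 0.41 (SE) at 28 DAA. Going the other way, Ta.13165.2.S1_at, also annotated as LEA group 1, differed by -3.74 ± 0.18 (SE) at 14 DAA and -4.07 ± 0.18 (SE) at 28 DAA. Lea protein 12 (Ta.12657.1.S1_at) was higher in IITR26 by 3.96 ± 0.28 (SE) at 14 DAA and its difference of 1.10 at 28 DAA was under the bound. The list thus held several patterns between the genotypes, and the members' pattern was 1 of them.

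The largest difference of the set belonged to a nodulin-type member. The early nodulin-like protein (Ta.6107.2.S1_a_at), of a family of small proteins at the plasma membrane, stood at 7.89, 8.89 and 8.67 in IITR26 at 28 DAA and at -0.25, -0.35 and -0.12 in WL711. At 14 DAA IITR26 stood at 0.02, -0.02 and 2.11 and WL711 at -0.28, -0.55 and 0.02. WL711 showed no change with stage beyond the spread of its arrays (0.03), whereas the deposited IITR26 signal was 422-fold above it at 28 DAA, a lower bound if the flat WL711 signal was background. The difference of 0.98 at 14 DAA, just inside the bound, came mainly from IITR26 replicate 3. The second member of its cluster, Ta.6107.3.S1_a_at, was higher at 28 than at 14 DAA in both genotypes, by 5.97 in IITR26 and by 3.18 in WL711.

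The nodulin MtN21 family protein (Ta.26279.1.A1_at) stood at 2.63, 3.14 and 3.25 in IITR26 at 28 DAA against 0.43, 0.57 and 0.00 in WL711, a difference of 2.67. The nodulin MtN3 family protein (Ta.14511.1.S1_at) moved in opposite directions in the genotypes. Its IITR26 arrays were at -0.35, -0.66 and -0.21 at 14 DAA and at 1.64, 1.64 and 1.79 at 28 DAA, while the WL711 arrays were at 0.14, 0.50 and 0.34 and then at -0.38, -0.45 and -0.14. No stage overlapped with the other in either genotype, and the change was 2.10 in IITR26 and -0.65 in WL711. Its difference of 2.01 at 28 DAA was close to the bound, and without IITR26 28 DAA replicate 3 it was 1.96. Of the 6 probe sets in the list of amino acid, sugar and nodulin-type transporters, 3 are members, which the rule chose for their difference at 28 DAA. At 28 DAA 4 were called higher in IITR26, the 3 members among them, beside 0.566% of all probe sets, or 1 after a repeated quantile normalization. The early nodulin-like protein is among these members and calls by its name alone, as its annotation names no transport. The call outside the set was an amino acid transporter (TaAffx.128497.1.S1_at), which missed the set by a change of 1.99 in IITR26.

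Of the members named as regulators, NAC domain-containing protein 67 (Ta.5367.1.S1_s_at) had the larger difference. Its IITR26 arrays stood at -1.08, -1.65 and -1.14 at 14 DAA and at 3.09, 3.62 and 3.67 at 28 DAA. The WL711 arrays stood at 0.11, -1.31 and -0.68 and then at 0.27, -0.11 and 0.37, so that the 2 stages overlapped in WL711 and did not in IITR26. The change was 4.75 in IITR26 and 0.80 in WL711, and IITR26 was 9.74-fold higher at 28 DAA. The other probe sets of its cluster showed differences of only 0.66 and 0.14 at 28 DAA. In the list of 16 probe sets for NAC and other transcription factors it was the single member. IITR26 was called higher in 3 and lower in 4 at 28 DAA, beside 0.566% and 0.804% of all probe sets. The 3 include this member, chosen for this difference, and a NAC domain-containing protein that met every bound and was left out with its cluster.

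Somatic embryogenesis receptor kinase 2 (TaAffx.45627.1.S1_at), of a family of co-receptors with leucine-rich repeats, stood at 3.45, 3.33 and 3.82 in IITR26 at 28 DAA and at 0.93, 0.48 and 0.39 in WL711. All arrays of 14 DAA lay between -0.39 and -0.75, and the genotypes there did not overlap, with a difference of 0.26. The senescence regulator (Ta.29464.1.A1_at) differed by 2.65 at 28 DAA, with changes of 3.76 in IITR26 and 0.90 in WL711. The protein with an ACT domain (Ta.6111.1.S1_at), a fold that binds amino acids and other small molecules, differed by 2.25, and WL711 14 DAA replicate 1 stood at 0.80 where its replicates stood at -1.55 and -1.51. Without WL711 14 DAA replicate 2 or 3 or IITR26 14 DAA replicate 3 the difference at 14 DAA was -1.22, -1.20 or -1.15, and it left the set.

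Among the enzymes, an aminotransferase (TaAffx.21593.1.S1_at), of the enzymes that pass an amino group from an amino acid to a keto acid, had the largest difference. It stood at 5.71, 5.79 and 5.19 in IITR26 at 28 DAA and between -0.56 and 0.12 in all WL711 arrays of both stages. The deposited IITR26 signal was 46.1-fold that of WL711 at 28 DAA, with the same limit, and the WL711 change was 0.44. Aldose 1-epimerase (Ta.712.1.S1_s_at), which interconverts the ring forms of sugars such as glucose and galactose, stood at 4.16, 4.76 and 4.34 in IITR26 and at 1.36, 1.44 and 0.96 in WL711 at 28 DAA. Here both genotypes were higher at 28 DAA, by 5.79 and 3.04.

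Phosphoglycerate mutase (Ta.4424.1.A1_x_at), an enzyme of glycolysis, differed by 3.26 at 28 DAA and by 0.97 at 14 DAA, and the IITR26 arrays lay above the WL711 arrays at both stages. It left the set when any of 3 arrays was left out. The other probe set of its cluster, Ta.4424.2.A1_x_at, differed by 1.12 at 28 DAA and by 0.07 at 14 DAA. The glycosyl hydrolase family 10 protein (Ta.13337.2.S1_x_at), of a family that holds xylanases, stood at 3.02, 3.32 and 3.03 in IITR26 and at 0.36, -0.14 and 0.03 in WL711 at 28 DAA, and 3 of the 4 probe sets of its cluster were members. The member annotated as a non-ribosomal peptide synthetase (Ta.3132.1.S1_s_at), an enzyme class known from bacteria and fungi, differed by 3.55, with a change of 2.92 in IITR26 and -0.51 in WL711. The stages did not overlap in IITR26 and overlapped in WL711 for each of these 3.

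The members tied to oxidative stress and detoxification lay near the bound at 28 DAA. OXS3 (Ta.21508.1.A1_a_at), known in Arabidopsis for a part in tolerance of oxidative stress, stood at 3.06, 3.40 and 3.34 in IITR26 and at 1.502, 1.19 and 1.06 in WL711, with changes of 4.64 and 3.23 from 14 DAA. The glyoxalase family protein (Ta.8571.1.S1_a_at), of enzymes that clear methylglyoxal, differed by 2.40 and was 1 of 5 members of its cluster, the most of any cluster, with differences of 2.15 to 2.41. The peroxidase precursor (Ta.7262.1.A1_x_at) differed by 2.14, and the other probe set of its cluster by -0.48. In the list of 13 probe sets for peroxidases and detoxification, IITR26 was called higher in 5 and lower in 2 at 28 DAA, beside 0.566% and 0.804% of all probe sets. The 5 include the 3 members of the list, which the rule chose for this difference. After a repeated quantile normalization 1 was called higher. The largest of the 5, a peroxidase precursor outside the set (Ta.23366.2.S1_at), was higher in IITR26 at both stages, by 2.98 and 7.14.

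The members tied to defence were a ribosome inactivating protein, a serine rich protein and an NBS-LRR protein. The ribosome inactivating protein (Ta.13191.1.S1_x_at), an enzyme of cereal seeds that removes a base from ribosomal RNA, stood at 4.60, 4.30 and 4.61 in IITR26 and at 1.26, 0.51 and 0.69 in WL711 at 28 DAA. Both genotypes were higher than at 14 DAA with no overlap, by 5.98 in IITR26 and 2.90 in WL711. Another 2 members share its cluster, with differences of 3.43 and 3.09, and the 2 remaining probe sets of the cluster differed by 0.72 and 0.27. The NBS-LRR disease resistance protein (TaAffx.106304.1.S1_at), of a class of immune receptors within the cell, differed by 2.05 and the serine rich protein (TaAffx.10772.1.A1_at) by 2.79. The other probe set in the cluster of the serine rich protein, TaAffx.10772.1.A1_s_at, differed by 1.02 at 28 DAA. Of the 24 probe sets in the list of defence proteins, IITR26 was called higher in 4 and lower in 3 at 28 DAA, beside 0.566% and 0.804% of all probe sets. The 4 include the 3 members of the list, which the rule chose for this difference. After a repeated quantile normalization 2 were called higher.

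The remaining named members were a reticulon interacting protein (TaAffx.92203.1.A1_at), with a difference of 3.07, and a protein with tetratricopeptide repeats (Ta.16815.1.S1_s_at), a fold that binds other proteins, with one of 2.01. Both were higher at 28 DAA in IITR26, by 3.27 and 2.96, and in WL711 their changes were 0.26 and 0.95.

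**Figure D3:**
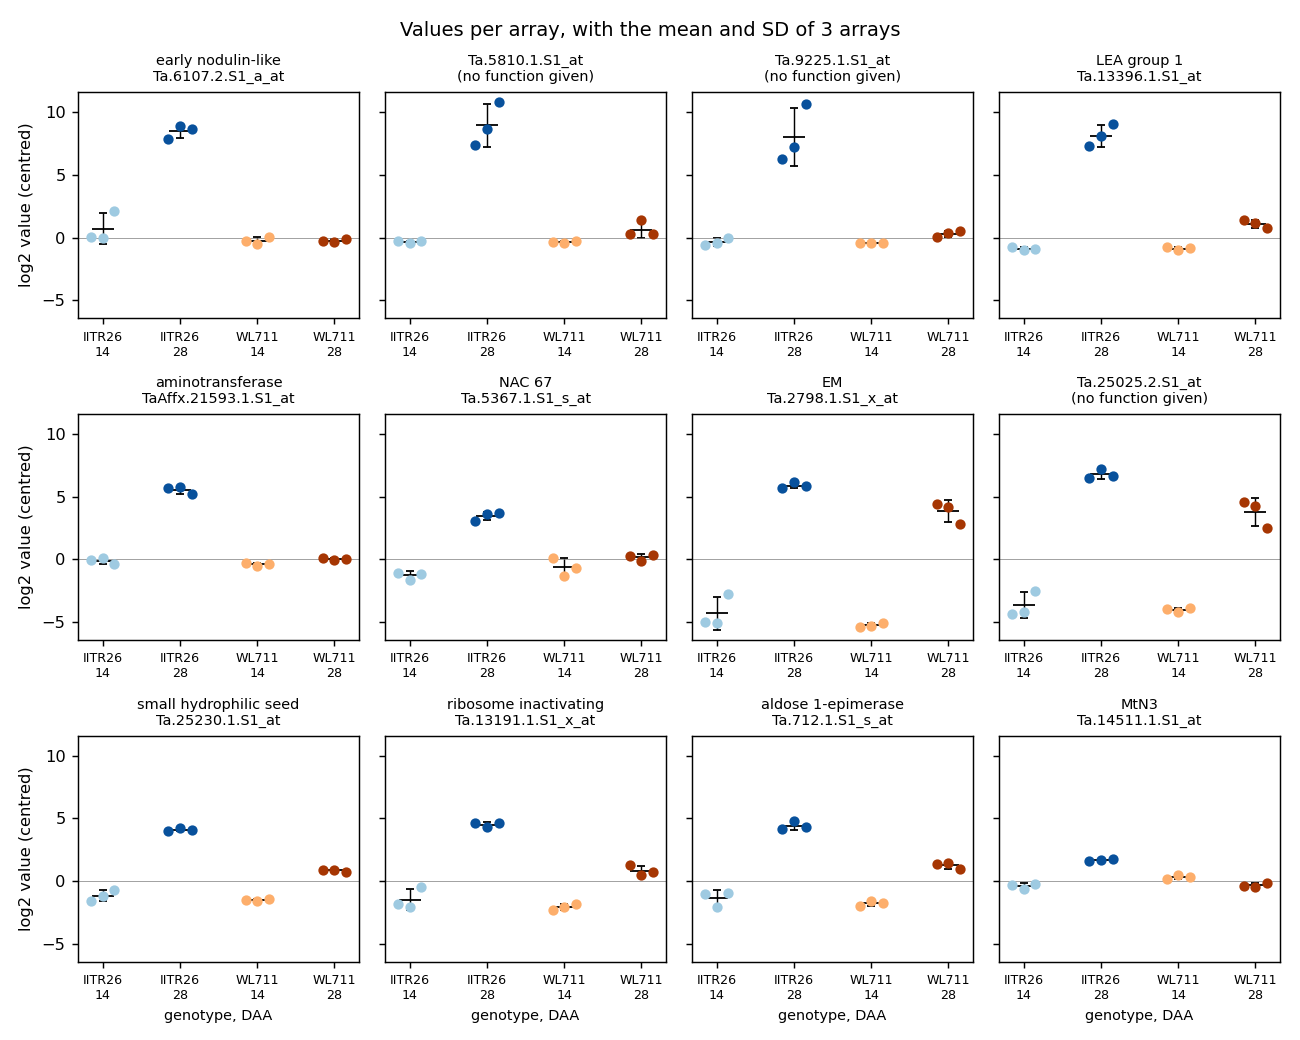
Deposited log2 values (centred, y axis) of 12 members in each of the 12 arrays, by genotype and stage, with the mean and the SD of 3 arrays as bars. The IITR26 arrays of 28 DAA lie highest in each panel, and the WL711 arrays of 28 DAA lie near those of 14 DAA for the early nodulin-like protein and near IITR26 for EM.

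Most of the largest differences belonged to probe sets with no function given. Ta.5810.1.S1_at stood at 7.37, 8.71 and 10.81 in IITR26 at 28 DAA and at 0.29, 1.38 and 0.25 in WL711. Its 6 arrays of 14 DAA lay between -0.43 and -0.25, so the genotypes overlapped there, and the difference at 28 DAA was 8.32. Ta.9225.1.S1_at stood at 6.26, 7.26 and 10.69 in IITR26 and at 0.03, 0.34 and 0.48 in WL711 at 28 DAA. A second probe set of the same cluster, Ta.9225.1.S1_x_at, gave nearly the same values, and the 2 are readings of 1 cluster, with differences of 7.79 and 7.72. Ta.6059.1.S1_at, annotated with the locus LOC543264, stood at 5.11, 5.96 and 7.93 in IITR26 against 0.36, 0.39 and -0.07. In each of these 4 probe sets IITR26 replicate 1 was the lowest and replicate 3 the highest of the 3 arrays, and the lowest still stood above all WL711 arrays.

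At the other end stood members that changed strongly with stage in both genotypes. Ta.25025.2.S1_at was at -4.35, -4.21 and -2.497 in IITR26 at 14 DAA and at 6.50, 7.22 and 6.67 at 28 DAA. In WL711 it was at -3.998, -4.24 and -3.90 and then at 4.59, 4.22 and 2.497. The change was 10.48 in IITR26 and 7.82 in WL711. The other 3 probe sets of its cluster are annotated as Em (EMH2) and were no members, with differences of 1.14 to 1.29 at 14 DAA and 1.13 to 1.51 at 28 DAA. Ta.24312.1.S1_at and Ta.28555.1.S1_at followed, with changes of 6.92 and 6.51 in IITR26 and of 5.62 and 4.96 in WL711.

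In 10 members the WL711 change was 4 or more. IITR26 14 DAA replicate 3 stood at least 1 above both its replicates in 5 of the 10, against 5.58% of the 215 and 0.273% of all probe sets. WL711 28 DAA replicate 3 stood at least 1 below both its replicates in 6 of the 10, against 5.58% of the 215 and 0.0948% of all probe sets. Both arrays enter the means that the rule read, so these counts are not independent of the choice. Without WL711 28 DAA replicate 3, 4 of the 10 left the set, and without IITR26 14 DAA replicate 3, 0 did.

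The lowest changes in WL711 included members that rest on 1 array. Ta.6179.1.S1_at stood at -6.57, 1.32 and 0.77 in the WL711 arrays of 28 DAA and at 1.87, 2.32 and 1.82 in the IITR26 arrays. Without WL711 replicate 1 its difference of 3.50 became 0.96. Ta.23322.2.S1_at stood at -3.72, 0.47 and 0.55 in WL711 and its difference of 2.68 became 1.28 without the same array. Without this array, the one that stood apart from its group, neither met the rule. Ta.351.2.S1_x_at (LOC778392) did not rest on it, with WL711 at 1.496, 0.02 and 0.50 at 14 DAA and -0.27, -0.02 and -0.28 at 28 DAA, and IITR26 at 3.26, 4.52 and 5.80 at 28 DAA. It lay at the bound of 14 DAA and left the set when any of 4 arrays of that stage was left out.

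**Figure D4:**
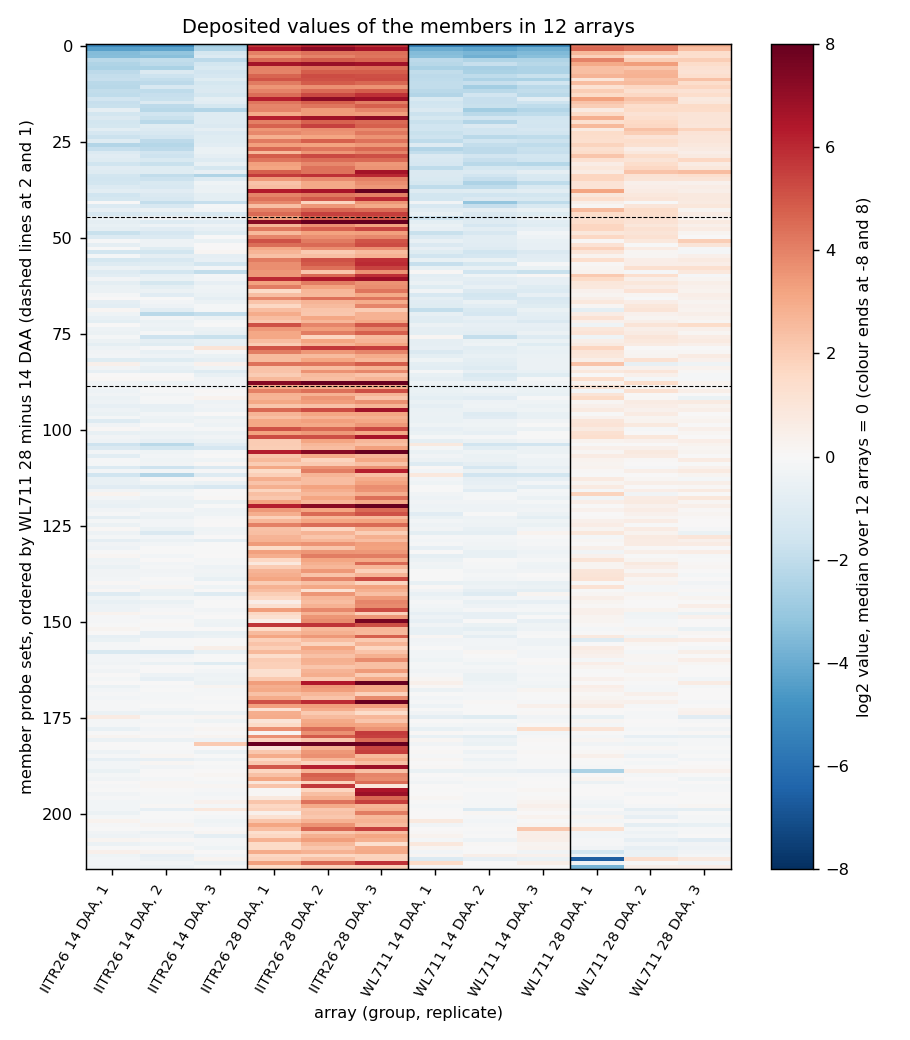
Deposited log2 values (colour) of the 215 members in the 12 arrays (columns, 3 for each group), ordered from the largest to the lowest WL711 change from 14 to 28 DAA, with dashed lines where that change is 2 and 1. The IITR26 28 DAA arrays are red in most cells, with some pale ones in replicate 1, the WL711 28 DAA arrays pale towards the bottom, and WL711 28 DAA replicate 1 holds the blue cells near the bottom.

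The 3 IITR26 arrays of 28 DAA were not equal over the members. The median over the members was 2.85 in replicate 1, 3.27 in replicate 2 and 3.60 in replicate 3. Replicate 3 held the highest of the 3 values in 122 members, or 56.7%, where it did in 30.7% of all probe sets, and replicate 1 held the lowest in 158, or 73.5%, where it did in 32.1%. Replicate 1 stood at least 1 below both others in 38 members, or 17.7%, against 0.173% of all probe sets. Replicate 3 stood at least 1 above both others in 33 members, or 15.3%, against 0.307%. The median SD over the members was 0.466 in this group, 0.363 in WL711 at 28 DAA, 0.225 in IITR26 at 14 DAA and 0.209 in WL711 at 14 DAA, against 0.177, 0.163, 0.133 and 0.128 over all probe sets.

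In 19 members the IITR26 arrays of 28 DAA spanned 3 or more. The widest was Ta.5861.1.S1_x_at, at 0.52, 3.81 and 7.58, where the highest WL711 array of 28 DAA stood at 0.19, and it stayed in the set when any 1 array was left out. The next widest, Ta.5886.1.S1_at and Ta.5861.2.S1_at, lay just inside the bound on separation, with IITR26 replicate 1 standing 0.07 and 0.06 above the highest WL711 array. Without IITR26 28 DAA replicate 3 the differences of these 2 fell from 3.17 and 2.77 to 1.31 and 0.92, and 41 of the 215 left the set in all. Leaving out each array in turn, 124 members never left the set, among them 14 of the 23 named ones, 44 left it for 1 array and 47 for 2 or more. Without replicate 1 the rule took 271 probe sets, with 208 of the 215 among them. Whether stage within 28 DAA, the grains taken or the RNA of these arrays moved the values was not tested.

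A probe set ID names its cluster of transcripts by its first 2 parts, and the 215 members came from 182 clusters. Probe sets of a cluster share transcripts in part and are not independent. In 117 clusters the member was the only probe set on the array, and the other 65 clusters had more than 1. Of the 65, 24 held more than 1 member, with 57 members in all. In 13 of the 65 every probe set was a member, and the rest held 92 probe sets that were no members. Of the 92, 85 had a difference above 0 at 28 DAA and 45, or 48.9%, had one of at least 1, against 2.94% of all probe sets. They were taken because a member of their cluster had been chosen for its difference on these same arrays, which can raise their values. They had also failed at least 1 bound of the rule, which can lower them. The shares are therefore not independent of the choice.

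Their median difference was 0.02 at 14 DAA and 0.98 at 28 DAA, and their median change with stage was 1.61 in IITR26 and 0.50 in WL711. In limma's fit 2 of the 92 were called higher in IITR26 than in WL711 at 28 DAA, beside 0.566% of all probe sets. This count ran from 2 to 13 when 1 array was left out, with 13 without IITR26 28 DAA replicate 1. A larger difference at 28 than at 14 DAA was called for 5 and a smaller one for 2, beside 0.729% and 0.796% of all probe sets. The change from 14 to 28 DAA passed upward for 37 in IITR26 and 16 in WL711, beside 1.33% and 0.958%. Where several probe sets of a cluster were members, as in Ta.13396, Ta.5734 (4.61, 3.60 and 2.66) and TaAffx.37239 (4.66, 2.18 and 2.02), the differences were not equal in size.

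**Figure D5:**
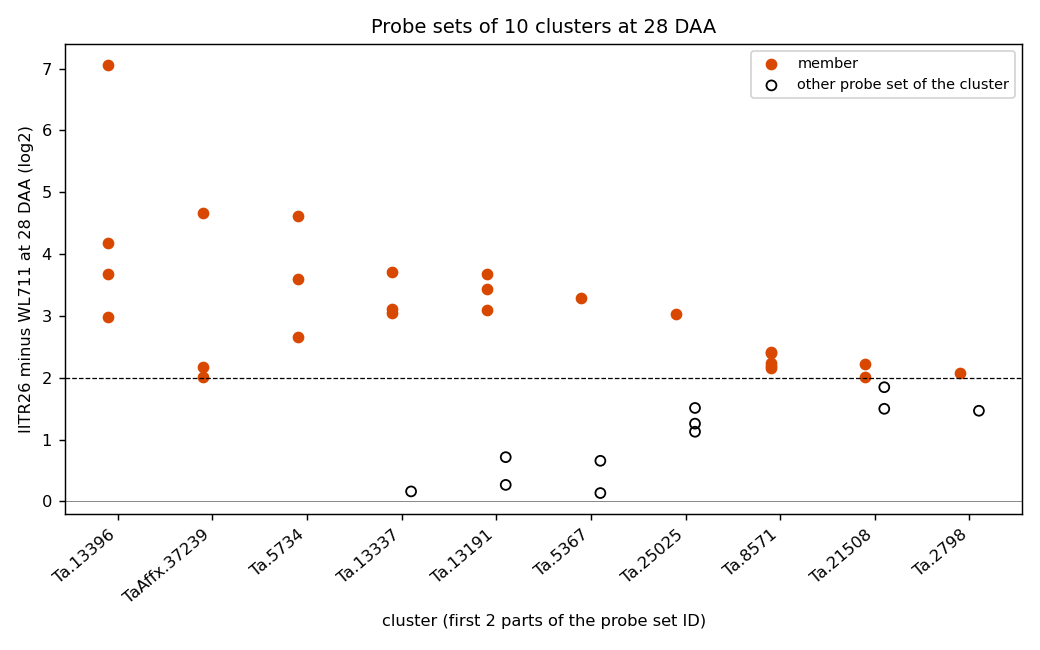
IITR26 minus WL711 at 28 DAA (y, log2) for the members (filled) and the other probe sets (open) of 10 clusters (x), with the bound of 2 dashed. Members of Ta.13396 span 2.98 to 7.05, while the other probe sets of Ta.5367 stand at 0.66 and 0.14 beside a member at 3.28.

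By the kind of probe, 63 members, or 29.3%, carried the suffix x, s or a, which marks probes that may bind several transcripts, against 20.8% of all probe sets. Without such probe sets 152 members remained. In a hexaploid plant such probes can read the copies of a gene on related chromosomes together.

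Values just outside the bounds were close to those just inside. At the bound of 2 at 28 DAA, Ta.12219.1.A1_at lay inside with 2.003 and TaAffx.64501.1.A1_at outside with 1.997. At 14 DAA the early nodulin-like member lay inside with 0.98 and Ta.28838.1.S1_at outside with 1.05, whose difference at 28 DAA was 3.60. At the bound on IITR26, Ta.3118.1.S1_at lay inside with 2.02 and the amino acid transporter outside with 1.99. On separation, Ta.5861.2.S1_x_at fell outside because an IITR26 array stood 0.12 below a WL711 array. The 5 probe sets left out with their clusters, which include dehydrin xero 1, a small heat shock protein and a NAC domain-containing protein, differed by 2.04 to 3.43 at 28 DAA.

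Lists of other genes of the grain, taken by key word, gave the following counts at 28 DAA. All probe sets of the oil body and green tissue lists were in the study's table, as were 6 of the 17 for storage proteins. In the list of 13 probe sets for oil bodies and lipid transfer, 2 were called higher and 7 lower in IITR26. The 2 were a caleosin related protein (Ta.14471.3.S1_a_at, 2.88 ± 0.24 (SE)) and an oleosin (Ta.14236.1.S1_at, 2.69 ± 0.32 (SE)), both of oil bodies, which are rich in embryo and aleurone. At 14 DAA these 2 differed in opposite directions, by -2.35 for the caleosin related protein and 3.48 for the oleosin. The 7 were annotated for lipid transfer or transport, the largest being Ta.9884.1.S1_at at -6.81. Of 17 probe sets for storage proteins, most of them gliadins and glutenins of the endosperm with puroindoline and an embryo globulin among them, 1 was called higher and 1 lower, or 4 higher without WL711 28 DAA replicate 1, and of 9 for green tissue 2 were called lower. None of the probe sets in these 3 lists is a member. The part of the makeup of the grain in the members' differences was not tested.

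The spread of the centred values differed between the groups. Differences of stage and genotype enter this spread along with any difference of scale between arrays, and they were not told apart. The highest 1% of centred values began at 1.66 to 2.07 in the IITR26 28 DAA arrays, at 1.93 to 2.04 in the WL711 14 DAA arrays, at 1.02 to 1.18 in the WL711 28 DAA arrays and at 0.84 to 0.97 in the IITR26 14 DAA arrays. When the deposited values were quantile normalized again, which makes these tails equal, the rule took 83 probe sets, 80 of them among the 215. This step acted on centred values and can also shrink differences between the groups, so the reason for the lower count was not tested. All 215 kept a difference above 0 at 28 DAA and 207 one of at least 1, with a median of 1.92 in place of 2.67, while 119 fell under 2 and 30 left the bounds at 14 DAA. With the array medians aligned instead, the same 215 were taken.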

How the data were processed

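Total RNA of 12 samples was measured on the Affymetrix wheat genome array, with 3 samples of 3 grains for each genotype and stage, and samples were grouped by their titles. RMA in GeneSpring GX was used by the authors, and the deposited values are log2 signals of every probe set, unfiltered. In each of the 61179 non-control probe sets the median over the 12 arrays was within 1e-06 of 0, a shift that the sources used here do not describe. No step of the processing tells whether a probe set was above background. The 111 control probe sets were left out.

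The rule of the opening was applied to the group means, and the members and the gene lists were chosen with earlier results of these data known. A linear model of the 4 group means was fitted with limma 3.58.1 in R 4.3.3 (lmFit and eBayes, 8 residual degrees of freedom), with Benjamini-Hochberg adjustment of the p-values over the whole table. Called means an adjusted p no higher than 0.01 with a log2 difference of 2 or more in size, the thresholds of the study. The script was tested on simulated data. With 3 arrays a group the precision is limited, and an exact permutation test of 3 against 3 cannot go below 0.1.

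Named were the members with a putative function or gene name, the 6 with the largest difference at 28 DAA, the 4 with the largest and the 4 with the lowest change in WL711, probe sets next to each bound, and other probe sets of these clusters. Further members were chosen after their values were seen, such as Ta.5734 and TaAffx.37239 for the number of members in the cluster. Putative functions came from the study's table of 580 probe sets and from the platform's annotation, which gave 1 gene for 1273 probe sets, 1272 of them found in the table of RefSeq genes. Gene lists were taken by key word from these annotations, and 1 false match of the LEA key word was removed after its values were seen. Every list but that of storage proteins drew most of its probe sets from the study's table. Its counts are therefore raised by the study's own choice on these arrays. The alternatives left out each array, used the replicate number as a block, fitted only the 6 arrays compared, applied the methods' unpaired test, repeated the quantile normalization, aligned the array medians, left out the suffixes x, s and a, and moved the bounds.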

Additional observations from a re-analysis of the deposited data

Results flagged for a closer look

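In 6 of the 215 members, or 2.79%, the 3 WL711 arrays of 28 DAA all lay below the 3 of 14 DAA, while in IITR26 all arrays of 28 DAA lay above those of 14 DAA. The change from 14 to 28 DAA in WL711 was -0.86 for Ta.351.2.S1_x_at, -0.65 for the nodulin MtN3 family protein (Ta.14511.1.S1_at) and -0.60 for Ta.29634.1.S1_at. It was -0.60 for TaAffx.82926.1.S1_s_at, -0.59 for Ta.12219.1.A1_at and -0.25 for TaAffx.12097.1.A1_at. The opposite directions were not tested, since the rule had chosen these probe sets on the same means, and over all probe sets 18.2% had every WL711 array of 28 DAA below those of 14 DAA.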

How the results depend on the processing

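No called result changed direction in the alternatives run. With 1 array left out, the rule took 182 to 271 probe sets, 155 to 195 members were called higher in IITR26 at 28 DAA, 108 to 149 for a larger difference at 28 than at 14 DAA, 194 to 211 as higher at 28 DAA in IITR26 and 39 to 49 in WL711. Of the 92 other probe sets of the clusters, 2 to 13 were then called at 28 DAA, with 13 without IITR26 28 DAA replicate 1, 2 to 11 for the larger difference and 33 to 40 for the change in IITR26. A repeated quantile normalization took 83 members and called 78 of the 215 at 28 DAA and 0 of the 92. The methods' unpaired test, adjusted here over all probe sets, called 0 members at 28 DAA (160 unadjusted), 94 for the change in IITR26 and 8 for that in WL711. Of the 92 it called 0 at 28 DAA and 11 for the change in IITR26. A bound of 1.5 in place of 2 took 411 members and one of 2.5 took 117. With a log2 difference of 1, 67 members were called for the change in WL711, and 33, 18 and 56 of the 92 at 28 DAA, for the larger difference and for the change in IITR26. An adjusted p of 0.05 called 9 of the 92 for the larger difference, and without the suffixes x, s and a the counts were 3 and, for the change in IITR26, 18. The cause of these shifts was not tested, except that fewer probe sets enter without the suffixes.

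The correlation of same-numbered samples' deviations from their group means ran from -0.07 to 0.19 over 18 pairs, with a median of 0.05. For other numbers it ran from -0.21 to 0.09 over 36 pairs, with a median of -0.02. The ranges overlap, and whether the replicate numbers pair the samples was not tested. With the replicate block 195 members were called at 28 DAA, 122 for the larger difference, 206 for the change in IITR26 and 44 for that in WL711, and 2, 5 and 37 of the 92. For the named members, 2717 of the values in 5 comparisons kept their side of the thresholds, 99 fell short and 18 passed instead. Alternatives for the gene lists were chosen after seeing the data. Without the suffixes 1 transcription factor was called higher in IITR26 at 28 DAA, 1 detoxification probe set higher and 1 lower, and 1 oil body or lipid transfer probe set higher and 4 lower. After the repeated quantile normalization 1 of the latter was called higher and 1 green tissue probe set lower.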
